A study of Mus musculus with 10 samples.

Results

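The 9 genes described here, Chaf1a, Chaf1b, Sumo2, Setdb1, Trim28, Suv39h1, Suv39h2, Ehmt2 and Mbd3, encode chromatin factors known as barriers to reprogramming, and were taken by name from the 50600 genes listed for each library. All 9 were found and all 9 passed the filter on low counts. Mouse embryonic fibroblasts (MEFs), from E13.5 embryos of the strain CBA/CaJ X C57BL/6J, received retroviruses that carry Oct4, Klf4 and Sox2 (OKS) and were grown in iCD1, a serum-free reprogramming medium. The control arm, OKS+DR, also received a virus for the red fluorescent protein DsRed, and the other arm, OKS+FoxO6, a virus for the forkhead factor FoxO6. Bulk RNA was sequenced on 5 days (0, 1, 3, 5 and 7). Each arm gave a single library a day, so the 10 libraries hold no replicates. Both arms carry the 3 reprogramming factors, the cells are an infected population and not a clone, and no library of uninfected MEFs was analysed here.

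Differentiated cells keep much of their genome in compact chromatin. CAF-1 places new histones on DNA behind the replication fork, SUMO2 tags chromatin proteins, the H3K9 methyltransferases write a mark of silent chromatin, and TRIM28 (KAP1) brings one of them, SETDB1, to retroelements and other targets. Lowering several of these factors is known to ease the conversion of fibroblasts to induced pluripotent stem cells, and MBD3, a subunit of the NuRD remodelling complex, has been described both as a barrier and as a requirement. The comparison of the arms asks whether transcripts of these factors differed when FoxO6, which hindered reprogramming in the study, was added to OKS.

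The libraries held 1208379 to 2225750 expected counts with a median of 1601151, which is shallow, so read numbers are given for the scarcer genes. Foxo6 followed the labels, with transcript abundance values (TPM, scaled to transcript length and library size) of 0.61 to 2.29 in OKS+DR, from 1 to 4 reads, and of 762.11 to 1356.41 in OKS+FoxO6. It was already at 1017.2 in OKS+FoxO6 at day 0, so that library was made from infected cells. The MEF label was checked with 15 fibroblast markers, whose summed TPM at day 0 was 9927 in OKS+DR and 9462 in OKS+FoxO6. Over the 5 days the sum ran from 3395 to 9927 and from 3697 to 9462. Of the 15, 4 were higher with FoxO6 by edgeR, Dcn (+1.15), Twist1 (+0.99), Pdgfra (+0.96) and Postn (+0.70), the last not called by DESeq2. By edgeR 2 were lower, Col3a1 and Col6a1, beside 6.48% of all genes higher and 6.97% lower with FoxO6. At day 7, 12 were lower than at day 0 by edgeR, beside 10.4% of all genes. The 10 macrophage markers summed to 18.2 to 61.1 TPM in OKS+DR and 23.9 to 31.2 in OKS+FoxO6, with Cd68 the highest in every library (at most 52.57) and Ptprc at most 0.6. The 10 endothelial markers summed to 67.0 to 88.8 in OKS+DR and 73.6 to 155.5 in OKS+FoxO6. Of these, Cdh5 was at most 1.24 and Pecam1 at most 5.73, but Tek (+0.95, adjusted p 0.00129 by edgeR) and Kdr (+2.19, adjusted p 0.0305) were higher and Eng (-0.81, adjusted p 0.0174) lower with FoxO6, 2 of these 3 also by DESeq2, and Tek reached 103.7 TPM. The 10 epithelial markers summed to 88.7 to 828.1 TPM in OKS+DR and to 39.0 to 220.5 in OKS+FoxO6. By edgeR 4 of 8 tested were lower and 0 higher with FoxO6, beside 6.97% and 6.48% of all genes, and DESeq2 called 3 of the 8. The 12 pluripotent cell markers summed to 6.72 to 626.2 in OKS+DR and 0.71 to 212.8 in OKS+FoxO6, highest at day 7 in each, with Nanog (-3.01) and Tdh (-1.34) lower among 5 tested, and the part of these shifts in the values of the 9 genes was not tested. In bulk RNA, fewer cells that express a gene and less RNA of it per cell cannot be told apart.

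By median TPM over the 10 libraries, a scale that allows for transcript length, the 9 genes stood at 4 levels. Trim28 (median 429.4, mean 455.5 ± 78.0 SD, n = 10 libraries) and Sumo2 (420.4, 429.7 ± 51.1) stood at the top, with Trim28 the higher of the pair in 5 of 10 libraries. Each SD spans both arms and all days, so it is not a spread of replicates. Ehmt2 (207.4, 197.2 ± 28.4) and Mbd3 (168.6, 181.4 ± 34.0) came next, Ehmt2 being the higher in 7 of 10. Suv39h1 (43.4, 42.8 ± 7.87), Chaf1b (42.1, 41.3 ± 8.31), Chaf1a (34.8, 35.7 ± 7.44) and Setdb1 (32.2, 36.5 ± 11.04) overlapped throughout. Suv39h2 was the lowest (8.81, 9.22 ± 3.47). The ranges of Sumo2 and Ehmt2, of Mbd3 and Suv39h1, and of Setdb1 and Suv39h2 did not overlap. The writers of H3K9 methylation thus spanned a wide range, from Ehmt2 to Suv39h2, and the corepressor Trim28 far exceeded its partner Setdb1.

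**Figure D1:**
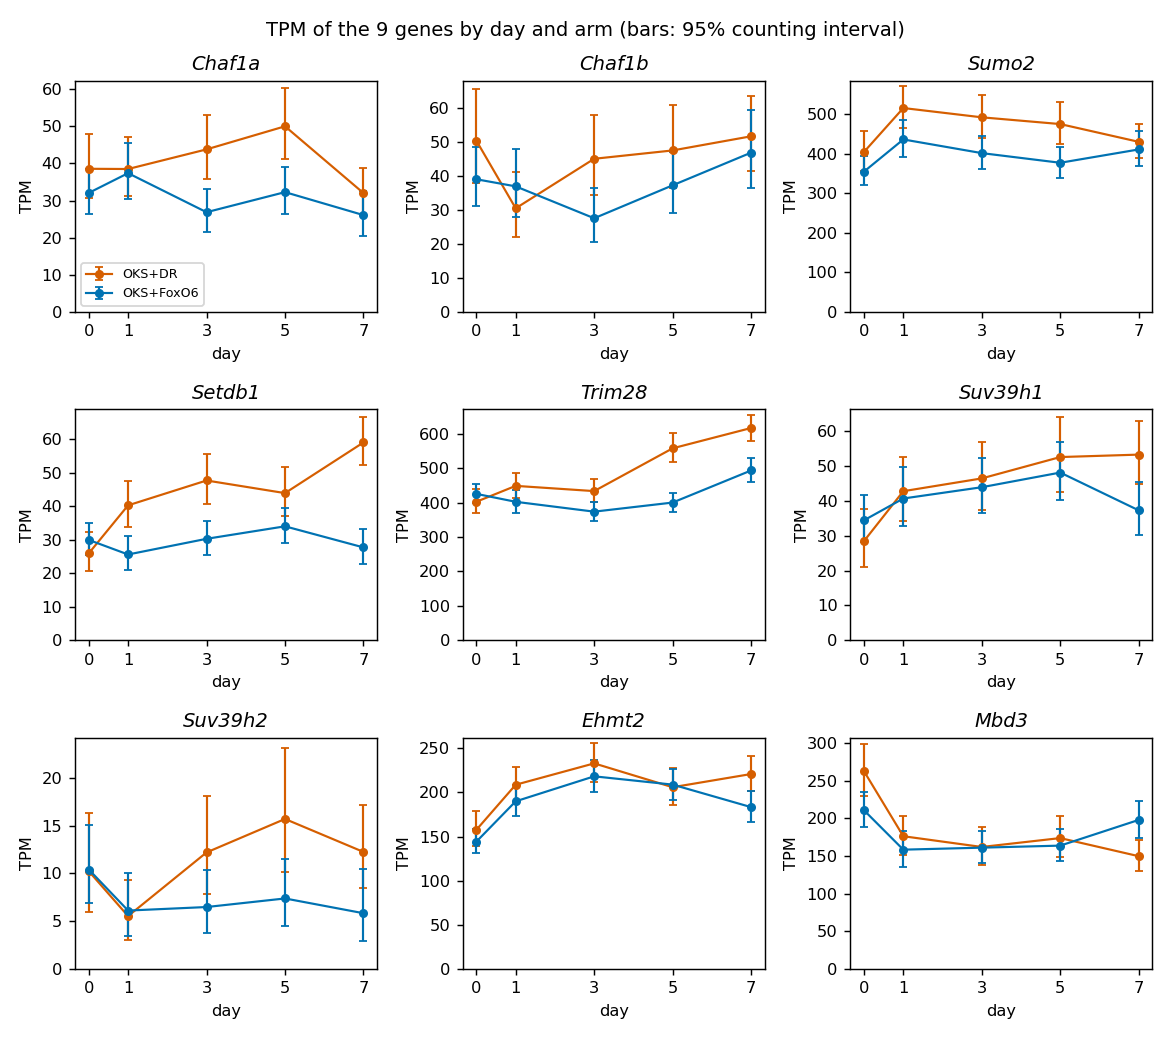
TPM of the 9 genes by day in OKS+DR and OKS+FoxO6, each point being 1 library, with an axis scaled for each gene. Setdb1 reaches 59.07 in OKS+DR at day 7 against 27.73 in OKS+FoxO6, while Mbd3 is lower at every later day than at day 0 in both arms.

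By edgeR but not by DESeq2, Setdb1 passed the test of a shift shared by the 5 days, being lower with FoxO6. The other 8 genes did not pass. The call of Setdb1 held under 5 of 11 alternatives, and at day 0 it was not the lower with FoxO6. That shift was tested on the expected counts of 12212 genes by the quasi-likelihood test of edgeR in a model of day and arm, and p-values were adjusted over all genes by the method of Benjamini and Hochberg. Of the 9 genes, 1 was lower and 0 were higher in OKS+FoxO6 at an adjusted p under 0.05, against 6.97% of all genes lower and 6.48% higher, and 4 had an unadjusted p under 0.05, as had 27.7% of all genes. The fitted change was negative for 9 of 9 genes with a median of -0.27 on the log2 scale, beside a median of -0.03 and 53.2% negative over all genes tested. Of the 9, Mbd3, at -0.01, turned positive under 4 of 11 alternatives. With DESeq2, 0 of the 9 were called, against 1187 of 12212 genes, and 2 of the 9 had an unadjusted p under 0.05. A single infected culture may have given all days of an arm, so the p-values describe these courses and not independent infections. The TPM ranges of the arms overlapped for all 9 genes, but the share of all genes with such an overlap was not computed.

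**Figure D2:**
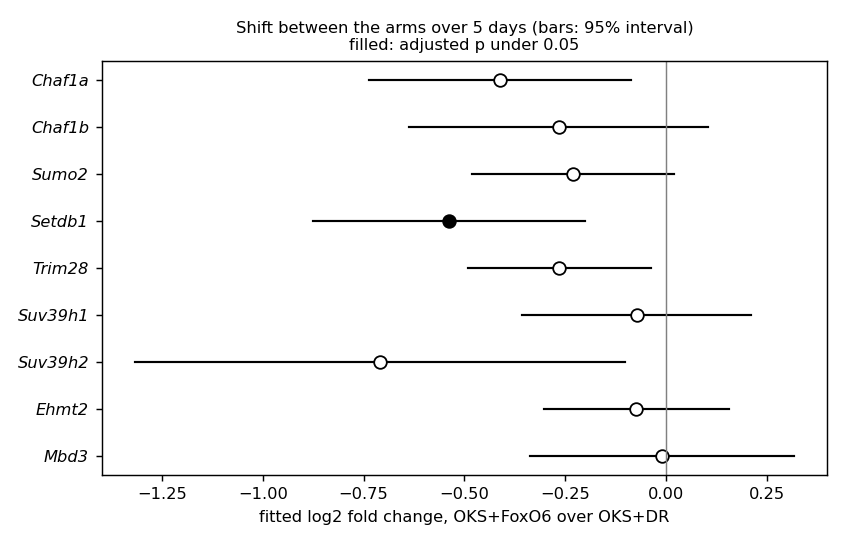
Fitted log2 fold change of each gene in OKS+FoxO6 over OKS+DR across the 5 days, with bars for the 95% interval and a filled point for an adjusted p under 0.05. Setdb1, at -0.54, is the filled point, and the intervals of Chaf1a, Trim28 and Suv39h2 also lie below 0.

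CAF-1 is represented by its largest subunit Chaf1a (ENSMUSG00000002835, GRCm38 chr17:56040439-56072289, plus strand), the p150 protein, and by Chaf1b (ENSMUSG00000022945, chr16:93883901-93906115, plus strand), the p60 protein. In OKS+DR the TPM of Chaf1a over days 0, 1, 3, 5 and 7 was 38.55, 38.49, 43.78, 50.0 and 32.0, from 81 to 111 reads. In OKS+FoxO6 it had 32.06, 37.37, 26.85, 32.26 and 26.07, from 76 to 115 reads. It was lower with FoxO6 on 5 of 5 days, most at days 3 and 5, where the ratios of counts per library total were 0.603 (95% exact interval 0.447 to 0.811) and 0.630 (0.478 to 0.829). These intervals cover counting error only. The fitted shift was -0.41 (SE 0.148, 95% interval -0.74 to -0.087), with an adjusted p of 0.0919 by edgeR's test.

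Chaf1b had a TPM of 50.41, 30.52, 45.12, 47.58 and 51.75 in OKS+DR and of 39.08, 36.99, 27.59, 37.3 and 46.93 in OKS+FoxO6, from 43 to 88 reads. It was lower with FoxO6 on 4 of 5 days, day 1 being the exception, and its ratio of counts was 0.615 (0.414 to 0.910) at day 3. The shift was -0.27 (SE 0.169, -0.64 to 0.11), with an adjusted p of 0.351. The ratio of Chaf1a to Chaf1b in TPM ran from 0.618 to 1.26 in OKS+DR and from 0.556 to 1.01 in OKS+FoxO6, lowest at day 7 in each. Chaf1a overlaps Ubxn6 on the opposite strand and had fractional counts in 10 of 10 libraries, so some of its reads were shared out by the estimate.

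CAF-1 genes are made mainly in cells that copy their DNA, and E2F factors drive many genes of that kind. The 250 bases before the start of each are shown for that reason, from RefSeq on GRCm38.p6, for Chaf1a at chr17:56040166-56040415 and for Chaf1b at chr16:93883651-93883900, both on the plus strand. Capitals mark matches on either strand to the E2F core TTCCCGC, its form TTGGCGC, its form TTCGCGC or its form TTGCCGC, and to the CCAAT box.
Chaf1a: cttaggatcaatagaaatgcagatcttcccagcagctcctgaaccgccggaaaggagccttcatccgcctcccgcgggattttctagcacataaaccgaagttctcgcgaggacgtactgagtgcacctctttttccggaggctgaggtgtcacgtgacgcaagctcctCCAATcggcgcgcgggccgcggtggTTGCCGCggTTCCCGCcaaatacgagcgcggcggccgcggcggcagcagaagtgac
Chaf1b: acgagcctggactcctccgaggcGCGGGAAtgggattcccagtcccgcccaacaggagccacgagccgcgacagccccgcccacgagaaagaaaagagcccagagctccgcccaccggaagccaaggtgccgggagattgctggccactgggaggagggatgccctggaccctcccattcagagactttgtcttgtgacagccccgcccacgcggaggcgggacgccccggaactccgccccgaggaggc
Chaf1a held E2F cores at -56 and -47, counted from the start, beside a CCAAT box, and Chaf1b held a core at -227. Suv39h1 and Ehmt2 have 2 promoters each in the table, so the 9 genes have 11. Such a core stood in the same window of 6 of the 11 (Chaf1a, Chaf1b, Sumo2, Suv39h2, Trim28 and 1 of the 2 of Suv39h1) and in 7.89% of 32851 promoters. The 11 windows held 51.6 to 84% G and C, and these cores are rich in G and C. The promoters they are set beside were not matched for this content. CCAAT stood in 5 of the 11 and in 33.8% of promoters. The forkhead core GTAAACA, on either strand, stood in 0 of the 11 and in 3.17% of promoters. TTTGAA or TTCGAA, letters of the cell-cycle CHR element, stood in 0 of the 11 and in 17.1%. These are matches of letters in a window, not sites shown to be bound.

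Sumo2 (ENSMUSG00000020738, chr11:115523102-115536276, minus strand) encodes a ubiquitin-like protein that is joined to chromatin proteins. Its TPM was 404.64, 515.48, 491.98, 474.91 and 429.97 in OKS+DR and 354.84, 436.03, 401.45, 377.03 and 410.73 in OKS+FoxO6, from 257 to 399 reads. It was lower with FoxO6 on 5 of 5 days in TPM, by a small margin at day 7, where the ratio of counts per library total was 1.04 (0.896 to 1.202). The fitted shift was -0.23 (SE 0.114, 95% interval -0.48 to 0.020), with an adjusted p of 0.220. SUMO genes have near-identical copies elsewhere in the genome, and Sumo2 had fractional counts in 4 libraries.

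Setdb1 (ENSMUSG00000015697, chr3:95323525-95357202, minus strand), the methyltransferase that silences retroelements, was the only one of the 9 past the threshold of the shift between the arms. Its TPM in OKS+DR was 25.99, 40.29, 47.71, 43.94 and 59.07 at days 0, 1, 3, 5 and 7, from 78, 140, 169, 146 and 267 reads. In OKS+FoxO6 it was 29.96, 25.62, 30.3, 34.03 and 27.73, from 153, 100, 143, 165 and 116 reads. At day 0 the arms were close, with OKS+FoxO6 the higher, and on each of the other 4 days OKS+FoxO6 was lower. The fitted shift was -0.54 (SE 0.154, 95% interval -0.88 to -0.20), with an adjusted p of 0.0412 by edgeR's test. DESeq2 gave an adjusted p of 0.0683, and leaving out day 1, 3, 5 or 7 gave edgeR values of 0.114, 0.148, 0.118 and 0.0795, with shifts of -0.51, -0.50, -0.56 and -0.43. Without day 0 it was 0.0126. Setdb1 lies beside Cers2 on the opposite strand, overlaps it in the annotation, and had fractional counts in 2 libraries.

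The course of Setdb1 within each arm also looked different. Its TPM at day 7 was 2.27 times that at day 0 in OKS+DR and 0.926 times in OKS+FoxO6. At day 7 the ratio of the arms was 0.469 in TPM and 0.520 in counts per library total (95% exact interval 0.415 to 0.649). The test of a steady widening between the arms gave -0.09 log2 units per day with an adjusted p of 0.328, so a difference in course did not pass.

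Trim28 (ENSMUSG00000005566, chr7:12999114-13031035, plus strand), the corepressor that recruits SETDB1 through KRAB zinc finger proteins, was the best measured gene with 524 to 1056 reads a library. Its TPM was 402.63, 448.7, 433.49, 557.79 and 616.8 in OKS+DR and 425.39, 402.39, 373.78, 400.21 and 493.44 in OKS+FoxO6. OKS+FoxO6 was the lower on the last 4 days by either measure, while at day 0 it was the higher in TPM and had a ratio of counts of 0.914 (0.819 to 1.02). The shift was smaller, at -0.27 (SE 0.103, 95% interval -0.49 to -0.038), with an adjusted p of 0.119. Setdb1 amounted to 6.46, 8.98, 11.01, 7.88 and 9.58% of the TPM of Trim28 in OKS+DR and to 7.04, 6.37, 8.11, 8.50 and 5.62% in OKS+FoxO6. Trim28 overlaps Zbtb45 on the opposite strand.

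Suv39h1 (ENSMUSG00000039231, chrX:8061171-8074760, minus strand) and Suv39h2 (ENSMUSG00000026646, chr2:3455815-3475031, minus strand) encode paired enzymes that trimethylate H3K9 in pericentric heterochromatin. Suv39h1 had a TPM of 28.53, 42.81, 46.48, 52.61 and 53.31 in OKS+DR and of 34.47, 40.71, 43.95, 48.16 and 37.31 in OKS+FoxO6, from 50 to 141 reads. It was above its day 0 value on all 4 later days in each arm. The ratio of the arms in TPM, OKS+FoxO6 over OKS+DR, was 1.21, 0.951, 0.946, 0.915 and 0.700 by day, so the gap was widest at day 7, where the ratio of counts was 0.841 (0.643 to 1.095). The fitted shift was -0.07 (SE 0.129, 95% interval -0.36 to 0.21), with an adjusted p of 0.775. An antisense gene, Gm14820, overlaps it.

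Suv39h2 had a TPM of 10.23, 5.53, 12.21, 15.72 and 12.26 in OKS+DR, from 17, 14, 24, 25 and 33 reads. In OKS+FoxO6 it had 10.41, 6.11, 6.48, 7.38 and 5.83, from 28, 15, 17, 19 and 11 reads. The arms were close in TPM at days 0 and 1 and OKS+FoxO6 was the lower on the other 3, with a ratio of counts of 0.523 (0.264 to 1.01) at day 3, 0.501 (0.261 to 0.947) at day 5 and 0.399 (0.182 to 0.809) at day 7. Its fitted shift had the largest size of the 9, -0.71, and the widest error (SE 0.276, 95% interval -1.32 to -0.10), and the adjusted p was 0.119. Suv39h1 exceeded Suv39h2 in TPM by 2.79, 7.74, 3.81, 3.35 and 4.35 times in OKS+DR and by 3.31, 6.66, 6.78, 6.53 and 6.40 times in OKS+FoxO6. Few reads stand behind Suv39h2, its effective length varied 1.59-fold between libraries, and it overlaps Dclre1c on the opposite strand.

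Ehmt2 (ENSMUSG00000013787, chr17:34898469-34914052, plus strand) encodes G9a, which writes H3K9 dimethylation in euchromatin. Its TPM was 157.76, 208.8, 233.04, 205.98 and 220.95 in OKS+DR and 144.35, 189.99, 218.34, 208.94 and 183.39 in OKS+FoxO6, from 250 to 572 reads. Day 0 was the lowest day in each arm, and the arms ran close together. The shift was -0.07 (SE 0.105, 95% interval -0.30 to 0.16), with an adjusted p of 0.712, an interval that leaves room for a modest difference in either direction.

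Mbd3 (ENSMUSG00000035478, chr10:80392539-80399550, minus strand) was the only one of the 9 genes with its highest TPM at day 0 in both arms. Its TPM was 262.25, 176.08, 161.81, 173.61 and 149.55 in OKS+DR and 210.44, 158.23, 160.9, 163.6 and 197.74 in OKS+FoxO6, from 160 to 330 reads. At day 0 the ratio of counts, OKS+FoxO6 over OKS+DR, was 0.769 (0.648 to 0.913), and at day 7 it was 1.53 (1.27 to 1.85), so the order of the arms was opposite at the ends of the course. The shift over all days was -0.01 (SE 0.149, 95% interval -0.34 to 0.32), with an adjusted p of 0.978.

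None of the 9 genes passed the test of change over the course, although 20.2% of all genes did. That test took the 4 later days together with arm as a factor, and edgeR's adjusted p ran from 0.164 to 0.862. By edgeR 0 of the 9 had an unadjusted p under 0.05, beside 33.3% of all genes. DESeq2 also called 0 of the 9, against 2222 of 12212 genes, with 0 at an unadjusted p under 0.05. For day 7 against day 0 over both arms, 0 of the 9 were called by edgeR, against 11.5% of all genes higher and 10.4% lower. DESeq2 also called 0, against 2066 of 12212 genes. Of the 9, 3 had an unadjusted p under 0.05 by edgeR and 1 by DESeq2. By edgeR 33.9% of all genes had such a p, a share close to 3 of 9. The largest fitted differences were +0.57 for Suv39h1 (SE 0.206, adjusted p 0.0743), +0.53 for Setdb1 (SE 0.243, adjusted p 0.148), +0.42 for Ehmt2 (SE 0.166, adjusted p 0.0989) and -0.40 for Mbd3 (SE 0.233, adjusted p 0.259), by edgeR's test. Of the H3K9 methyltransferases, Suv39h1, Setdb1 and Ehmt2 had positive values and Suv39h2 a negative one (-0.28), and none was past the threshold. For Suv39h1 the ratio of day 7 to day 0 in TPM was 1.87 in OKS+DR and 1.08 in OKS+FoxO6, and for Mbd3 it was 0.570 and 0.940. With a library left out, the fitted difference ran from 0.21 (without OKS+DR day 0) to 0.94 (without OKS+FoxO6 day 0) for Setdb1 and from -0.80 (without OKS+FoxO6 day 7) to -0.04 (without OKS+DR day 7) for Mbd3.

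The difference between the courses, tested as a steady change of the gap between the arms per day, called 0 of the 9 genes, against 0.966% of all genes in the higher and 0.647% in the lower direction. By edgeR, 1 of the 9 had an unadjusted p under 0.05, beside 17.9% of all genes, namely Mbd3 at +0.12 log2 units per day (SE 0.0403, adjusted p 0.156). DESeq2 called 0 of the 9, against 158 of 12212 genes. It had 1 of the 9 at an unadjusted p under 0.05 and gave no adjusted p for 2. Suv39h2, at -0.18 per day, had an adjusted p of 0.353. The test had 3 residual degrees of freedom.

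On single days, with 1 library per arm and no test, FoxO6 was the lower arm for 5, 7, 9, 8 and 8 of the 9 genes at days 0, 1, 3, 5 and 7 in log2(TPM + 1). The medians over the 9 genes were -0.13, -0.14, -0.29, -0.34 and -0.29, beside medians of 0.09, 0, 0, 0.00 and -0.14 over the 15011 genes whose mean TPM reached 1. A difference past 2-fold was seen for 1 gene on 1 day, Setdb1 at day 7 (-1.06), where 16.5% of all genes were lower by that much. At days 0, 1, 3 and 5, 0 of the 9 were past it, against 6.41%, 9.43%, 11.8% and 11.4% of all genes. In CPM (counts scaled to TMM library sizes), 7, 8, 7, 9 and 6 of the 9 were lower, with medians of -0.13, -0.06, -0.26, -0.35 and -0.12, so several directions depend on the scale, among them Ehmt2 at day 7 (-0.27 in log2(TPM + 1), +0.07 in CPM). In CPM the gene past 2-fold at day 7 was Suv39h2 (-1.18), and Setdb1, at -0.92, was not past it. In log2(TPM + 1) Suv39h2 lay just inside, at -0.997 at day 5 and -0.96 at day 7. At day 7 the median of all genes was itself lowered on this scale, and Mbd3, at +0.40, was the only one of the 9 higher with FoxO6.

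**Figure D3:**
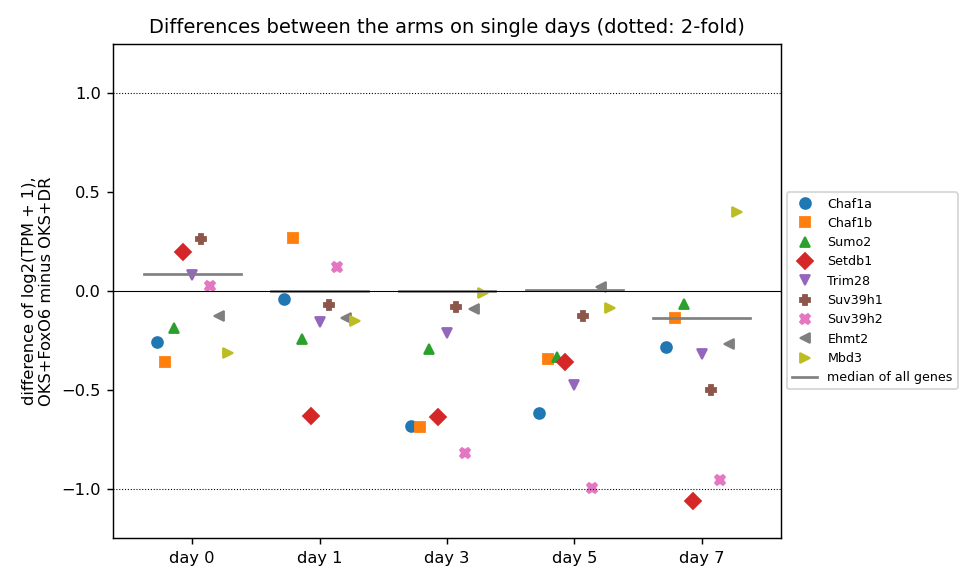
Difference in log2(TPM + 1), OKS+FoxO6 minus OKS+DR, for each of the 9 genes on each day, 1 library per arm. All 9 values at day 3 are below 0 on this scale, 7 of them in CPM, and at day 7 they run from -1.06 for Setdb1 to +0.40 for Mbd3.

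Lists of related genes, written by function with earlier results of these data known, place the 9 in their pathways, and their counts stand beside the 6.97% of all genes called lower and 6.48% called higher with FoxO6. Of 17 histone chaperones, 3 were lower with FoxO6 and 0 higher, namely Nasp (-0.64), Nap1l1 (-0.55) and Hjurp (-0.49), which carry H3-H4, H2A-H2B and CENP-A histones, and the list had a median of -0.19. Of 19 H3K9 methyltransferases and partners tested, 3 were lower, Uhrf1 (-0.79), the HP1 gene Cbx5 (-0.72) and Setdb1, and Mecom (+1.05) was higher, with a median of -0.12. Of 14 NuRD genes, 1 was lower, the deacetylase Hdac1 (-0.44), a share near that of all genes, with a median of -0.15. DESeq2, which called 1187 of all 12212 genes, called the same 3 chaperones, Uhrf1 and Cbx5, but not Setdb1, Mecom or Hdac1. Of 18 SUMO pathway genes and 10 H3K9 demethylases tested, 0 were called by edgeR or DESeq2, with medians of -0.05 and -0.02. At an unadjusted p under 0.05 there were 2 SUMO pathway genes by edgeR and 1 by DESeq2, and 0 demethylases by either, beside 27.7% of all genes by edgeR.

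CAF-1 works at the replication fork, so the genes of the fork were set beside it. Of 31 replication fork genes, 9 were lower by edgeR (7 by DESeq2) and 0 higher, against 6.97% of all genes lower and 6.48% higher by edgeR, with a median of -0.40, among them Pola1 (-0.79), of the polymerase that primes DNA synthesis, Rrm2 (-0.66), of ribonucleotide reductase, and the helicase subunits Mcm5 (-0.56) and Mcm2 (-0.55). Their summed TPM ran from 2114 to 2793 in OKS+DR and from 1695 to 2049 in OKS+FoxO6. The arms were closest at day 1, at 2114 and 2049, where the median difference of the list in log2(TPM + 1) was -0.07. Each sum rests on 1 library. The shift of Chaf1a, -0.41, lay close to the median of these genes, and the part of cell division in it was not tested. The summed TPM of the 9 genes ran from 1381 to 1626 in OKS+DR and from 1281 to 1429 in OKS+FoxO6.

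**Figure D4:**
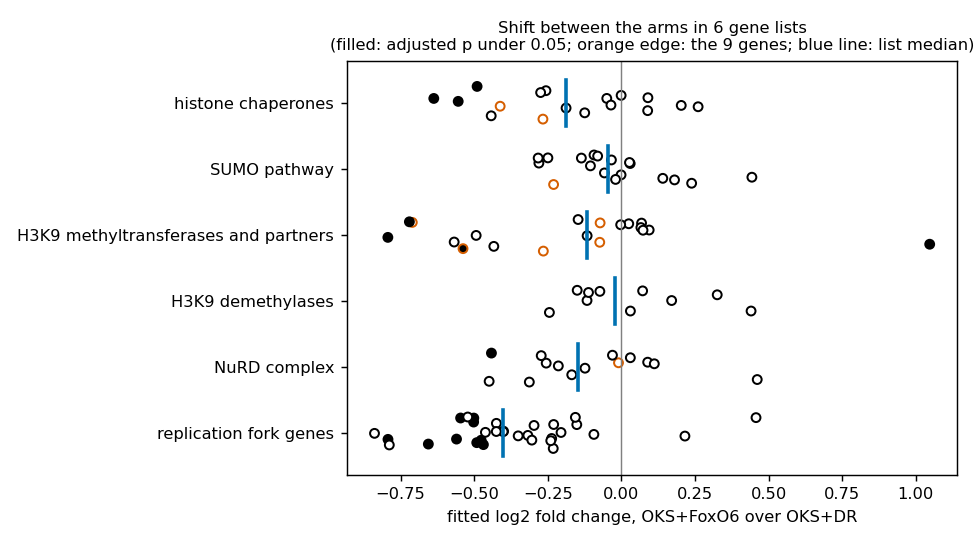
Fitted log2 fold change, OKS+FoxO6 over OKS+DR, for each tested gene of the 9 and of the related lists, with list medians. The replication fork genes have the lowest median of these lists, at -0.40, and the SUMO pathway and H3K9 demethylase genes lie around 0.

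The likeness of patterns was described by Pearson's r of log2(TPM + 1) over the 10 libraries, which share the days and arms, among the 9849 genes whose mean TPM reached 10. The genes named have the highest of these many values, so the ranking itself favours a high r. Whether they share a function was not tested. For Chaf1a the nearest genes were Lancl2 (r = 0.951), Rrm2 (0.949) and Rbl1 (0.927), the last 2 being genes of the dividing cell. For Chaf1b, the other CAF-1 subunit, they were other genes, Speg (0.959), Ppan (0.953) and Mrps28 (0.920). For Setdb1 they were Ptprj (0.953), Fam49b (0.946) and Lrrc49 (0.939). For Suv39h1 they were Dcp1a (0.971), Baz2a (0.970) and Arid1a (0.967), the last 2 encoding chromatin remodelling subunits. For Suv39h2 they were Socs1 (0.977), Khsrp (0.917) and Traf7 (0.906). For Mbd3 they were Kdelr2 (0.931), Tjap1 (0.919) and Sec13 (0.911), Kdelr2 and Sec13 being genes of the secretory route. Among the 9 genes, Suv39h1 and Ehmt2 had an r of 0.836, Setdb1 and Suv39h1 of 0.767 and Setdb1 and Trim28 of 0.701, while Mbd3 ran opposite to Suv39h1 (-0.887) and Ehmt2 (-0.825).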

How the data were processed

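Bulk RNA-seq of 10 libraries, grouped by their labels into OKS+DR and OKS+FoxO6 with 1 library per day, was analysed. The authors mapped reads to the GENCODE M13 transcriptome (mm10) by RSEM with bowtie2, tool versions not being given in the sources used here, and deposited expected counts per gene without normalization. The TPM values were also made by the authors with RSEM. The methods name a TruSeq kit and the labels a VAHTS kit, and no source used here states a strand setting. A series table repeats the expected counts of 48476 genes, identical to those of the libraries. Coordinates are from GENCODE M21 on GRCm38.

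Expected counts were rounded and fitted in R 4.3.3 with edgeR 4.0.16 (TMM, filterByExpr, glmQLFit, glmQLFTest, Benjamini-Hochberg threshold 0.05), with day and arm as factors (4 residual degrees of freedom). The shift between the arms, the change over the days and their product were tested, and DESeq2 1.42.0 was an alternative. The rest was computed in Python 3.11.15 (scipy 1.17.1, pandas 2.3.3, numpy 2.4.6, matplotlib 3.10.9). Single days were compared in log2(TPM + 1), a scale that understates changes of low genes, and counts per library total by an exact conditional binomial 95% interval. The fit was also run on simulated counts as a check of the code only, and the outcome is not reported here. Other alternatives were RLE size factors, no filter or at least 10 counts in every library, removal of the length trend, no day or arm term, each day or library left out, a pseudocount of 0.1, and CPM.

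The 9 genes and the 11 other lists were chosen with earlier results of these data known. The genes named are the 9, Foxo6, list members past the threshold with at most 4 examples a list, and the 3 genes nearest each of the 9 by correlation. Of these sets, those of Chaf1a, Chaf1b, Setdb1, Suv39h1, Suv39h2 and Mbd3 are shown. Cell type markers and overlapping genes are named as checks. Prdm3 and Tasor were not found under these symbols. Of the 10 macrophage and 10 endothelial markers, 1 and 4 passed the filter on low counts.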

Additional observations from a re-analysis of the deposited data

How the results depend on the processing

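The shift of Setdb1 kept its direction under all 11 alternatives run, from -0.67 to -0.43 on the log2 scale, and stayed past the threshold under 5. The number of the 9 genes past the threshold for the shift between the arms, 1, became 0 with DESeq2 and 0 without the day term (Setdb1 adjusted p 0.167), and ran from 0 to 1 with a day left out. Over all genes this shift had 791 higher and 851 lower calls, against 119 and 40 without the day term, and 705 and 773 calls in all without day 5 and without day 3. Change over the course, with 2466 calls over all genes and 667 without the arm term, and day 7 against day 0, with 2665 and 1270, had no call among the 9 without the arm term. The change of the gap per day had 118 higher and 79 lower calls over all genes, against 329 and 319 without a filter, 183 and 73 with the length trend removed, and 91 to 289 calls in all with a day left out. Among the 9, change over the course had 0 to 1 calls with a library left out, the call being Mbd3 without day 7 of OKS+DR (adjusted p 0.0209) or of OKS+FoxO6 (0.0321). Day 7 against day 0 had 2 calls with the length trend removed, Setdb1 (0.57, adjusted p 0.0484) and Suv39h1 (0.57, 0.0476), and 0 to 1 with a library left out, Setdb1 without day 0 or Mbd3 without day 7 of OKS+FoxO6, the values running from 0.21 to 0.94 for Setdb1 and from -0.80 to -0.04 for Mbd3. With a pseudocount of 0.1, 1 gene was past 2-fold at day 5 (Suv39h2) and 2 at day 7 (Setdb1 and Suv39h2). In CPM the gene past 2-fold at day 7 was Suv39h2 in place of Setdb1, and Ehmt2 at day 7 turned from -0.27 to 0.072. The shift of Mbd3 was 0.026 without a filter and ran from -0.16 to 0.11 with a day left out. In the same way the shift ran from -0.11 to -0.021 for Suv39h1, -0.37 to -0.16 for Chaf1b and -0.10 to -0.039 for Ehmt2. With a library left out, day 7 against day 0 ran from -0.73 to 0.062 for Suv39h2, -0.0037 to 0.17 for Chaf1b and -0.029 to 0.30 for Sumo2. The daily change of the gap was 0.00063 (RLE) and 0.00077 (DESeq2) for Trim28, and with the length trend removed 0.0074 for Chaf1a and -0.016 for Sumo2. With a day left out it ran from -0.037 to 0.025 for Trim28, -0.096 to 0.026 for Chaf1a and -0.075 to 0.032 for Chaf1b. For Setdb1 the daily change ran from -0.12 to -0.035 (without day 0) and was -0.043 with the length trend removed. For Mbd3 it ran from 0.069 (without day 7) to 0.14. The labels carry no replicate numbers, and the arms were matched by day through the day term. Depth limits Suv39h2 most, and with 1 library per arm and day no alternative stands in for replicates.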
